A study of Rattus norvegicus with 26 samples.

Results

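The genes described here are 7 rat genes known as targets of the pregnane X receptor (PXR) or the constitutive androstane receptor (CAR): Cyp3a23-3a1, Cyp3a9, Cyp3a18, Cyp2b3, Abcb1b, Abcc2 and Ephx1. All probe sets that the platform's probe table maps to one of these genes alone were taken, which gave 12 of 8740 probe sets that are not controls. Of the 12, 8 probe sets of 5 genes passed the filter on low values and were tested. The 2 dimmer probe sets of Cyp3a23-3a1 and the only probe sets of Cyp3a9 and Cyp3a18 stayed below it. The study exposed primary hepatocytes of female Sprague Dawley rats for 48 hours and measured RNA on a short-oligonucleotide rat array. Cells came from 2 pools of 3 animals, with 11 arrays from pool 1 and 15 from pool 2. Both pools received PCB 126, a coplanar polychlorinated biphenyl, at 1 pM, 0.1 nM, 10 nM, 1 µM or 10 µM, and TCDD, a chlorinated dioxin, at 0.01 pM, 1 pM, 0.1 nM, 10 nM or 0.316 µM. Doses of 10 pM and 1 nM of each chemical were run on pool 2 alone. The reference was the 0.5% DMSO vehicle, with 1 array per pool. Every comparison with vehicle shares these 2 arrays. A pool mixes the cells of its animals, so 2 pools are the only separate biological units, and p-values measure the spread between arrays. The comparisons ask whether the 7 genes changed at micromolar PCB 126 alone or also with TCDD.

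PXR and CAR are nuclear receptors of the liver that are activated by many drugs and pollutants. Each pairs with the retinoid X receptor and binds paired copies of a short element near genes for the oxidation, conjugation and export of foreign compounds. Ortho-substituted polychlorinated biphenyls are known CAR and PXR activators, whereas PCB 126 and TCDD are classed as ligands of a different sensor, the aryl hydrocarbon receptor (AhR), whose best known target is Cyp1a1. Among the 7 genes, Cyp3a23-3a1 encodes the main PXR-inducible CYP3A enzyme of rat liver, and Cyp3a9 and Cyp3a18 encode other CYP3A enzymes. Cyp2b3 belongs to the CYP2B family but is known in the rat as a constitutive liver form. Ephx1 is microsomal epoxide hydrolase, which opens epoxides to diols. Abcb1b is a P-glycoprotein that pumps drugs out of cells, and Abcc2 exports conjugates across the canalicular membrane into bile.

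The upstream regions of the 3 CYP3A genes and of Abcc2 are shown because CYP3A genes and Abcc2 are the members for which PXR elements are best known. They are the 250 bases before the annotated start in RefSeq's table for build GRCr8, written 5′ to 3′ on the strand of the gene, and capitals mark every copy of the nuclear receptor half-sites TGAACT and TGACCT on either strand, with the bases between them where the copies form a direct repeat with 3 or 4 bases between or an everted repeat, in which they point apart, with 6 or 8. Cyp3a23-3a1 lies on the minus strand (chr12:14398804-14399053), Cyp3a9 on the minus strand (chr12:21960161-21960410), Cyp3a18 on the plus strand (chr12:13994062-13994311) and Abcc2 on the plus strand (chr1:252613625-252613874).
Cyp3a23-3a1: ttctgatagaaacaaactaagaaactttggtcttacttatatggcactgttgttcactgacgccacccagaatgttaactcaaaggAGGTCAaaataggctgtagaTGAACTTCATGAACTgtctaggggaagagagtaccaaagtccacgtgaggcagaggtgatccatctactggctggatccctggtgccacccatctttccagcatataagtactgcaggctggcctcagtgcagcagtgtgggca
Cyp3a9: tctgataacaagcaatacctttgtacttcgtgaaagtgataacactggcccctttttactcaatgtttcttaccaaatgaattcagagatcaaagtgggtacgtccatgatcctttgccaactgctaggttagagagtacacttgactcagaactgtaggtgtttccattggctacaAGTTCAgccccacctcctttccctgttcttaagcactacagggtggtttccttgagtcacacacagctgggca
Cyp3a18: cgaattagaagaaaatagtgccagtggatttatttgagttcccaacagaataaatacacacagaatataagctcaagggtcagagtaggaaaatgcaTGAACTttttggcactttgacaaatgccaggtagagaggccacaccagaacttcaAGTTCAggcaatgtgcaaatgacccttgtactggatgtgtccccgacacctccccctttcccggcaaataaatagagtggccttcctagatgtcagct
Abcc2: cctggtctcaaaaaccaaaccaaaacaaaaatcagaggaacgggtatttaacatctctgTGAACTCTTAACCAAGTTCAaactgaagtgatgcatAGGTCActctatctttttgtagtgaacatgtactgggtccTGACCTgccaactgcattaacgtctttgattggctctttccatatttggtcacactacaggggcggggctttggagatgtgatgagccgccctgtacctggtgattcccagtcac

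The Cyp3a23-3a1 window held TGAACTTCATGAACT, a direct repeat of the half-site with 3 bases between the copies, at bases 144 to 130 before the start. A direct repeat with this spacing, in any combination of both half-sites and on either strand, was present in 13 of 33469 promoter windows of the same length (0.039%), among them Cyp3a2. Single half-sites are common, since TGAACT was found in 12.2% and TGACCT in 14.1% of the windows. Cyp3a9 had 1 half-site and Cyp3a18 had 2, in none of the repeats searched. Abcc2 had 4, of which a pair formed TGAACTCTTAACCAAGTTCA, an everted repeat with 8 bases between, at bases 191 to 172 before the start. That spacing was added after the windows had been seen, and 3 of 33469 windows held such a repeat (0.009%). The windows of Cyp2b3 and Abcb1b held none of these letters, and the second of the 2 windows of Ephx1 held 2 half-sites. No member window held the AhR core GCGTG, which was present in 25.9% of all windows. These matches describe letters in a window and do not show that a receptor binds there. Only 250 bases were searched, so a motif absent from a window may still lie elsewhere near the gene.

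Values are the deposited log2 expression values, and a difference of 1 is a doubling. Cyp1a1 read at least 10.84 log2 in every array with PCB 126 or TCDD at 0.1 nM or more, against 3.45 and 3.28 log2 in the vehicle arrays. The array labelled PCB 126 at 1 pM in pool 2 stood apart, with Cyp1a1 at 10.80 log2 there and 3.21 log2 in its pool 1 counterpart, and the called PCB 126 slopes of the members and the Cyp3a23-3a1 differences at 1 pM are given without it as well. Hepatocyte markers were high (Alb between 13.7 and 14.5 log2), while 5 of 8 stellate cell and fibroblast markers with probe sets, 2 of 5 macrophage, 2 of 4 endothelial and 3 of 5 cholangiocyte markers passed the filter. The mean log2 level of the 5 stellate markers was 6.12 to 6.78 in the 4 arrays with PCB 126 at 1 or 10 µM, 6.72 to 7.09 in the 4 arrays with TCDD at 10 nM or 0.316 µM and 7.03 to 7.47 in the vehicle arrays. Of the 5 stellate markers only Tagln was called, lower with micromolar PCB 126 (-2.95 ± 0.46 log2, limma adjusted p = 0.00162) and in the PCB 126 trend. The mean of the 2 macrophage markers, Lyz2 and Ptprc, was 6.0 to 6.42 log2 with micromolar PCB 126, 5.78 to 6.23 with TCDD and 6.56 to 6.90 in vehicle. Of these 2 only Lyz2 was called, lower with 10 nM and 0.316 µM TCDD (-1.4 ± 0.30 log2, limma adjusted p = 0.0229) and in both trends. The hepatocyte marker Cps1 was called lower in the TCDD trend, and 0 endothelial and 0 cholangiocyte markers were called in these 4 comparisons. A list mean can be moved by 1 gene, so these means do not show that all markers of a list fell. The part of other cells in the results below was not tested, and in bulk RNA fewer cells of a type and less RNA per cell cannot be told apart.

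Counted over the 8 tested member probe sets with limma at an adjusted p below 0.05, changes were found for both chemicals. PCB 126 at 1 and 10 µM against vehicle gave 3 higher and 1 lower member probe sets, where 3.04% of all 5197 tested probe sets were called (1.56% higher and 1.48% lower). PCB 126 at 1 and 10 nM against vehicle gave 2 higher and 0 lower, against 1.27% of all probe sets (0.904% higher and 0.366% lower). TCDD at 10 nM and 0.316 µM against vehicle gave 2 higher and 1 lower, against 2.25% of all probe sets (1.35% higher and 0.904% lower). Over the dose series, the PCB 126 trend gave 3 higher and 3 lower member probe sets, against 4.25% of all probe sets (1.56% higher and 2.69% lower). The TCDD trend gave 0 higher and 2 lower, against 3.1% (1.64% higher and 1.46% lower). The median estimate of the 8 was -0.30 log2 for micromolar PCB 126, -0.19 for nanomolar PCB 126 and -0.19 for TCDD against vehicle, beside -0.02, -0.06 and -0.06 over all tested probe sets. Cyp3a23-3a1 and Abcc2 were higher and Cyp2b3, Ephx1 and Abcb1b lower where they were called. These counts are of probe sets, not of separate genes. At nanomolar PCB 126 and with TCDD against vehicle, the 2 higher probe sets were both Cyp3a23-3a1. Abcc2 was the third at micromolar PCB 126 and in the PCB 126 trend, where 2 of the 3 lower probe sets were Cyp2b3.

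Cyp3a23-3a1 (gene at chr12:14369950-14398803 on GRCr8) showed the largest differences from vehicle among the tested members. Its brighter probe set, called probe set 1 here (X64401cds_s_at), read 5.54, 6.46, 8.59, 8.11 and 10.43 log2 in pool 1 with PCB 126 at 1 pM, 0.1 nM, 10 nM, 1 µM and 10 µM. In pool 2 it read 7.22, 5.13, 6.21, 8.08, 8.73, 9.03 and 9.55 log2 with PCB 126 at 1 pM, 10 pM, 0.1 nM, 1 nM, 10 nM, 1 µM and 10 µM. The vehicle arrays read 4.77 log2 in pool 1 and 5.69 log2 in pool 2. Every PCB 126 array from 0.1 nM upward was above both vehicle arrays, and the highest array of each pool was the one with 10 µM PCB 126. The 10 pM array of pool 2 was below its own vehicle array.

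With TCDD the same probe set read 4.50, 6.14, 6.98, 8.24 and 7.30 log2 in pool 1 at 0.01 pM, 1 pM, 0.1 nM, 10 nM and 0.316 µM. In pool 2 it read 7.27, 6.81, 8.07, 8.79, 9.08, 8.82 and 8.03 log2 at 0.01 pM, 1 pM, 10 pM, 0.1 nM, 1 nM, 10 nM and 0.316 µM, against vehicle values of 4.77 log2 in pool 1 and 5.69 log2 in pool 2. All TCDD arrays from 1 pM upward were above both vehicle arrays. In both pools the 0.316 µM array was below the 10 nM array. The highest TCDD value, at 1 nM in pool 2, was second in its pool only to 10 µM PCB 126.

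Probe set 2 of Cyp3a23-3a1 (D13912_s_at) was dimmer and followed probe set 1 closely (Pearson r = 0.94 over 26 arrays after subtracting pool means, as a description). With PCB 126 it read 4.78, 5.26, 5.80, 5.84 and 8.17 log2 in pool 1 and 5.57, 4.23, 5.06, 6.34, 6.88, 7.12 and 8.06 log2 in pool 2, low to high dose, against vehicle values of 4.05 and 4.62. With TCDD it read 4.57, 5.18, 5.26, 5.66 and 5.86 log2 in pool 1 and 5.61, 5.39, 6.85, 7.17, 7.42, 7.03 and 6.10 log2 in pool 2. The 2 arrays with 10 µM PCB 126 were above all other arrays of both pools, while in pool 1 the other PCB 126 arrays lay between 4.78 and 5.84 log2 and the TCDD arrays between 4.57 and 5.86 log2. Both IDs end in the suffix that the array's maker gives to probe sets matching several similar transcripts, so signal from other CYP3A genes such as Cyp3a2 cannot be told apart here.

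**Figure D1:**
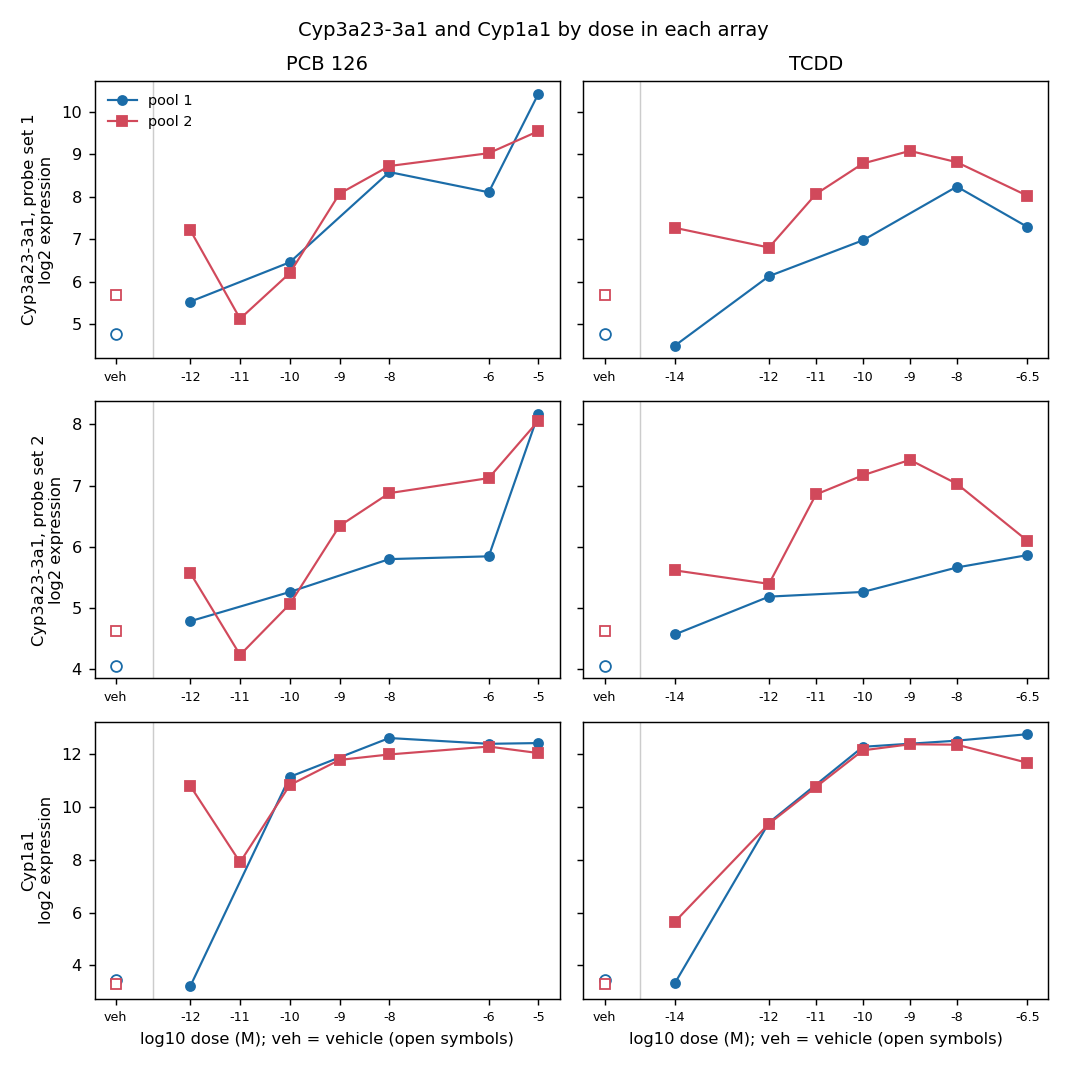
Log2 expression of both tested Cyp3a23-3a1 probe sets and of Cyp1a1 (y axes) against log10 dose in M (x axes), with PCB 126 on the left and TCDD on the right. Each point is 1 array, circles are pool 1, squares are pool 2 and open symbols are the vehicle arrays. Cyp1a1 is at 10.84 log2 or higher from 0.1 nM on with either chemical, whereas Cyp3a23-3a1 probe set 1 reads 10.43 and 9.55 log2 at 10 µM PCB 126 and 7.30 and 8.03 log2 at 0.316 µM TCDD.

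Against vehicle, Cyp3a23-3a1 rose with micromolar PCB 126, with nanomolar PCB 126 and with TCDD. At 1 and 10 µM PCB 126 probe set 1 was higher by 4.05 ± 0.53 log2 (SE, 4 treated against 2 vehicle arrays, limma adjusted p = 0.000563), a 16.6-fold difference with a 95% interval of 7.56 to 36.3. Probe set 2 was higher by 2.96 ± 0.36 log2 (7.78-fold, adjusted p = 0.000421). At 1 and 10 nM PCB 126 the differences were 2.93 ± 0.58 log2 for probe set 1 (7.62-fold, adjusted p = 0.0219) and 1.81 ± 0.39 log2 for probe set 2 (3.52-fold, adjusted p = 0.0375), from 3 treated arrays. At 10 nM and 0.316 µM TCDD they were 2.87 ± 0.53 log2 for probe set 1 (7.29-fold, adjusted p = 0.00848) and 1.82 ± 0.36 log2 for probe set 2 (3.54-fold, adjusted p = 0.0151). The nanomolar PCB 126 and the TCDD calls rest on both vehicle arrays: without the vehicle array of pool 1 or pool 2 the adjusted p of probe set 1 became 0.127 or 0.153 for nanomolar PCB 126 and 0.0881 or 0.0834 for TCDD. For nanomolar PCB 126 it was also lost without the 10 nM PCB 126 array of pool 1 (0.0931), and for probe set 2 without either vehicle array, either 10 nM PCB 126 array or either 1 pM TCDD array (adjusted p of 0.0521 to 0.271). For TCDD, probe set 2 was lost without either vehicle array (0.0909 and 0.161), pool 1 at 0.316 µM (0.068) or pool 2 at 10 nM (0.0601). With no pool block in the fit, probe set 1 lost its nanomolar PCB 126 call (adjusted p = 0.198) and its TCDD call (0.178), and with no filter on low values its nanomolar call (0.0503). Probe set 2 also lost both calls with no pool block. Its nanomolar call was lost as well with median centring of the arrays, and with variances neither trended nor robust. The micromolar calls held without any 1 array, with differences of 3.58 to 4.52 log2 for probe set 1.

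Across the dose series Cyp3a23-3a1 probe set 1 rose with PCB 126 by 0.58 ± 0.09 log2 per decade of dose (SE, adjusted p = 0.00208). Probe set 2 rose by 0.43 ± 0.07 (adjusted p = 0.00208). Without both 10 µM arrays the slope of probe set 1 stayed called and that of probe set 2 did not. With TCDD the slope of probe set 1 was 0.31 ± 0.09 log2 per decade and did not pass (adjusted p = 0.0613), and that of probe set 2 was 0.16 ± 0.07 (adjusted p = 0.264). The slopes were not shown to differ: their difference, PCB 126 minus TCDD, was 0.27 ± 0.13 for probe set 1 and 0.27 ± 0.10 for probe set 2 (adjusted p = 0.577 for both, 0 of 5197 probe sets called and 342 at an unadjusted p below 0.05). As with every slope comparison here, the dose ranges are unlike: 1 pM to 10 µM for PCB 126 and 0.01 pM to 0.316 µM for TCDD. With TCDD, probe set 1 was lower at 0.316 µM than at 10 nM in both pools, which a straight line cannot follow. Without the array labelled 1 pM PCB 126 of pool 2 the PCB 126 slopes were 0.65 and 0.47 (adjusted p = 0.00154 and 0.0017) and the slope differences 0.34 and 0.31 (adjusted p = 0.511 for both). Within pools the PCB 126 slope of probe set 1 was 0.66 ± 0.13 in pool 1 and 0.51 ± 0.12 in pool 2, and the TCDD slope was 0.42 ± 0.13 in pool 1 and 0.21 ± 0.13 in pool 2, with no difference between pools called. In pool 2 the TCDD series of probe set 1 starts at 7.27 log2 at 0.01 pM, above 6.81 at 1 pM and 5.69 in vehicle. Cyp1a1 was also raised in that array, at 5.66 log2, against 3.28 in the vehicle array of pool 2 and 3.33 at 0.01 pM in pool 1. The cause was not tested. The TCDD slope of probe set 1 passed when pool 2 at 0.316 µM was dropped (0.38, adjusted p = 0.0242), and also when the PCB 126 array at 10 pM (adjusted p = 0.0401) or that of pool 1 at 10 µM (adjusted p = 0.0499) was dropped.

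Differences between micromolar and nanomolar PCB 126 did not pass the test. In values, the mean of 1 and 10 µM PCB 126 exceeded that of 1 and 10 nM by 1.12 ± 0.49 log2 for Cyp3a23-3a1 probe set 1 (95% interval 0.08 to 2.16). For probe set 2 the excess was 1.15 ± 0.33 (0.43 to 1.86), with a limma adjusted p of 0.986 for both. In that comparison 0 of 5197 probe sets were called (0%), 135 had an unadjusted p below 0.05, and 3 of the 8 member probe sets were among those. The excess lay at 10 µM, since 1 µM was close to 10 nM. Group means of probe set 1 were 8.66 log2 at 10 nM, 8.57 at 1 µM and 9.99 at 10 µM. Those of probe set 2 were 6.34, 6.48 and 8.11 log2. Micromolar PCB 126 was likewise higher than 10 nM and 0.316 µM TCDD by 1.18 ± 0.43 log2 for probe set 1 (0.26 to 2.11) and 1.14 ± 0.30 for probe set 2 (0.50 to 1.77), with an adjusted p of 0.979 for both, 0 of 5197 called (0%) and 180 at an unadjusted p below 0.05. The doses differ in that comparison, and both intervals lie above 0 before the adjustment over all probe sets. TCDD at 0.316 µM was lower than TCDD at 1 and 10 nM by 0.94 ± 0.58 log2 for probe set 1 and 0.72 ± 0.39 for probe set 2 (estimates of -0.94 and -0.72, adjusted p = 1 for both, 0% called, 147 probe sets at an unadjusted p below 0.05). For 5 genes that read out the AhR, micromolar minus nanomolar PCB 126 was 0.40 ± 1.32 log2 for Cyp1a1, 0.62 ± 0.85 for Cyp1a2, 0.66 ± 0.83 for Cyp1b1, 1.43 ± 0.66 for Aldh3a1 and 0.13 ± 0.35 for Nqo1. Micromolar PCB 126 minus TCDD was -0.04 ± 1.17, 0.55 ± 0.75, -0.50 ± 0.73, 0.56 ± 0.58 and -0.16 ± 0.31 log2 for the same genes, and none of these was called.

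The chemicals were compared at the 5 doses they share, PCB 126 minus TCDD. For Cyp3a23-3a1 probe set 1 the difference was -0.10 log2 at 1 pM (95% interval -1.4 to 1.21), -2.94 at 10 pM (-4.78 to -1.09), -1.55 at 0.1 nM (-2.85 to -0.24), -1.01 at 1 nM (-2.85 to 0.84) and 0.13 at 10 nM (-1.18 to 1.43). For probe set 2 it was -0.11, -2.62, -1.05, -1.08 and -0.01 log2 at the same doses. Among the tested members, probe set 2 at 10 pM alone had an adjusted p below 0.05 (-2.62 ± 0.59, adjusted p = 0.0282), where 2.62% of all probe sets were called (1.69% higher and 0.924% lower). Each chemical had 1 array of pool 2 there, so the spread behind that p comes from the other dose groups and the difference has no replicate check. The call was lost with no pool block (adjusted p = 0.448) and with median centring of the arrays (0.0602). There PCB 126 read 4.23 log2 and TCDD 6.85 log2, and for probe set 1 PCB 126 read 5.13 and TCDD 8.07. At 0.1 nM 0.0385% of all probe sets were called (0.0192% higher and 0.0192% lower), and at 1 pM, 1 nM and 10 nM 0% were called. At 10 nM, where both chemicals had 2 arrays, PCB 126 read 8.59 and 8.73 log2 and TCDD 8.24 and 8.82 log2 for probe set 1, and the ranges overlapped. The interval of probe set 1 at 10 nM still leaves room for a difference of over 1 log2 either way, and that of probe set 2 was -0.90 to 0.89. The value at 1 pM contains the array that stood apart, and without it the difference was -0.57 log2 for probe set 1 and -0.14 for probe set 2.

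**Figure D2:**
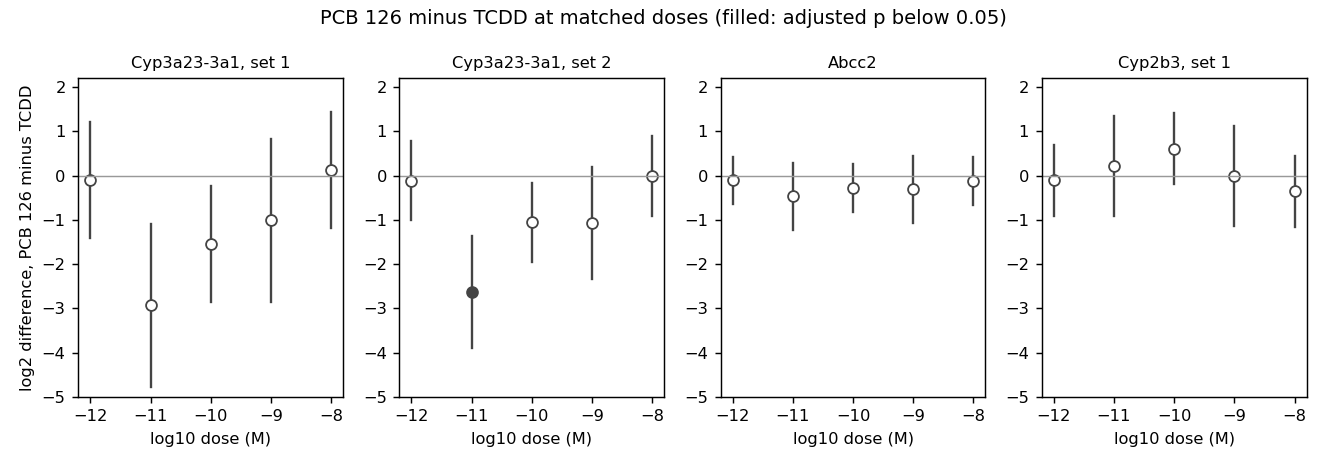
Difference in log2 expression, PCB 126 minus TCDD (y axis), at the 5 shared doses in log10 M (x axis) for both Cyp3a23-3a1 probe sets, Abcc2 and Cyp2b3 probe set 1. Points are limma estimates, bars are 95% intervals and the filled point, Cyp3a23-3a1 probe set 2 at 10 pM with -2.62 and 1 array per chemical, is the only one with an adjusted p below 0.05.

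The dim CYP3A probe sets gave values without tests. Probe set 4 of Cyp3a23-3a1 (L24207_i_at) read 4.31 and 3.48 log2 at 10 µM PCB 126, against 0.90 and 0.79 log2 in vehicle, and reached 2.94 log2 with TCDD (10 pM, pool 2). Probe set 3 (L24207_r_at) stayed between 1.42 and 1.63 log2 in every array of pool 1. In pool 2 it read 2.54 to 3.38 log2 with TCDD from 10 pM upward, against 1.44 log2 in vehicle. With PCB 126 in pool 2 it read 2.085 log2 at 1 nM, 2.56 at 10 nM, 2.24 at 1 µM and 1.55 at 10 µM, so that the 10 nM array lay within the range of the TCDD arrays. The highest single value was with TCDD for probe set 3 and with PCB 126 for probe set 4. Cyp3a9 (U46118_at, gene at chr12:21919955-21960160) ranged from 2.92 to 3.69 log2 and Cyp3a18 (D38381_s_at, chr12:13994312-14044185) from 2.97 to 3.81 log2 over all arrays, levels at which this summary method sets values close together. No rise at high dose is visible for either: at 10 µM PCB 126 Cyp3a9 read 3.02 log2 in both pools and Cyp3a18 read 3.48 and 3.32, against 3.14 and 3.02 log2 for Cyp3a9 and 3.46 and 3.13 for Cyp3a18 in vehicle.

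Cyp2b3 (chr1:90780468-90859852) was lower with both chemicals. Probe set 1 (M20406_at), the brightest of 3, read 10.08, 9.54, 8.12, 9.23 and 8.31 log2 in pool 1 and 9.77, 10.18, 9.98, 9.23, 9.01, 8.94 and 8.15 log2 in pool 2 with PCB 126, low to high dose. With TCDD it read 9.46, 9.68, 8.59, 8.81 and 7.94 log2 in pool 1 and 10.38, 10.38, 9.96, 9.71, 9.23, 9.03 and 9.40 log2 in pool 2, against vehicle values of 10.11 in pool 1 and 10.33 in pool 2. From 1 nM upward all arrays of either chemical were below both vehicle arrays. Against vehicle it fell by 1.56 ± 0.32 log2 with micromolar PCB 126 (0.339-fold, adjusted p = 0.0144) and by 1.43 ± 0.32 log2 with 10 nM and 0.316 µM TCDD (0.372-fold, adjusted p = 0.0316). With 1 and 10 nM PCB 126 the estimate was -1.44 ± 0.35 log2 and did not pass (adjusted p = 0.0684). Over the dose series it fell by 0.23 ± 0.05 log2 per decade with PCB 126 (adjusted p = 0.00571) and by 0.20 ± 0.04 with TCDD (adjusted p = 0.0148). The PCB 126 slope lost its call when the pool 1 array at 1 pM (adjusted p = 0.0561) or both 10 µM arrays were dropped. Without the array that stood apart it was -0.25 (adjusted p = 0.0048). The TCDD slope lost its call when the pool 2 array at 0.01 pM (0.051) or the pool 1 array at 0.316 µM (0.112) was dropped.

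The other Cyp2b3 probe sets were dimmer. Probe set 2 (rc_AI169735_g_at) fell with PCB 126 by 0.23 ± 0.06 log2 per decade (adjusted p = 0.0161, or 0.117 when pool 1 at 1 pM and 0.101 when pool 2 at 10 µM was dropped, and with a slope of -0.28 and 0.00681 without the array that stood apart), and its TCDD slope of -0.14 ± 0.05 did not pass (adjusted p = 0.174). Probe set 3 (rc_AI169735_at) was between 2.96 and 3.75 log2 in all arrays and was called in no comparison. Over the 26 arrays, after subtracting pool means, probe set 1 had r = 0.87 with probe set 2 and r = -0.11 with probe set 3. The falls of probe set 1 against vehicle were no longer called without the vehicle array of pool 1 (adjusted p = 0.15 for micromolar PCB 126 and 0.24 for TCDD) or of pool 2 (0.0829 and 0.147). The TCDD call was also lost when either 10 nM array (0.0587 for pool 1 and 0.108 for pool 2) or pool 1 at 0.316 µM (0.126) was dropped, and the PCB 126 call when pool 2 at 1 µM (0.0604) or 10 µM (0.0591) was dropped. With median centring of the arrays the TCDD call was lost as well (0.101). With no pool block, both falls of probe set 1 against vehicle, its TCDD slope and the PCB 126 slope of probe set 2 were no longer called.

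Abcc2 (D86086_s_at, chr1:252613875-252672459) was higher with dose, by far less than Cyp3a23-3a1. It read 9.62, 9.82, 10.47, 10.57 and 10.52 log2 in pool 1 and 10.77, 10.51, 10.60, 10.94, 11.06, 11.28 and 11 log2 in pool 2 with PCB 126. With TCDD it read 9.08, 9.80, 9.90, 10.52 and 10.24 log2 in pool 1 and 10.82, 10.80, 10.97, 11.07, 11.25, 11.24 and 10.73 log2 in pool 2, against vehicle values of 9.33 in pool 1 and 10.47 in pool 2. Compared with the vehicle array of the same pool, 12 of 12 PCB 126 arrays and 11 of 12 TCDD arrays were higher, the 0.01 pM TCDD array of pool 1 being the exception. Abcc2 rose by 0.94 ± 0.22 log2 with micromolar PCB 126 (1.92-fold, adjusted p = 0.0264) and by 0.11 ± 0.03 log2 per decade of PCB 126 (adjusted p = 0.0269). The difference for TCDD at 10 nM and 0.316 µM was 0.78 ± 0.22 log2 (1.72-fold) and did not pass (adjusted p = 0.0893), nor did the TCDD slope of 0.09 ± 0.03 (adjusted p = 0.0936). Micromolar PCB 126 and TCDD differed by 0.16 ± 0.18 log2 (95% interval -0.22 to 0.54, adjusted p = 0.979). Without the 0.01 pM TCDD array of pool 1 or pool 2 the TCDD difference from vehicle passed (adjusted p = 0.0242 and 0.0247), and without the vehicle array of pool 1 or pool 2 the PCB 126 difference did not (adjusted p = 0.257 and 0.102). The PCB 126 difference was also lost without the 1 µM array of pool 1 or pool 2 (0.0855 and 0.0534) or the 10 µM array of pool 1 (0.0895). Median centring of the arrays ended both Abcc2 calls (0.0822 for the difference and 0.112 for the slope), while without the array that stood apart the PCB 126 slope was 0.13 (adjusted p = 0.0303). Both Abcc2 calls were also lost with no pool block in the fit. The PCB 126 slope was lost without the 1 pM or 10 µM array of pool 1 (0.105 and 0.0783) or the 10 pM or 1 µM array of pool 2 (0.0723 and 0.052), and the TCDD slope passed without the 0.316 µM array of pool 2 (0.13, adjusted p = 0.00888). The PCB 126 slope of Abcc2 was also not called without both 10 µM arrays. Within pools the Abcc2 slope was 0.16 ± 0.04 in pool 1 and 0.08 ± 0.03 in pool 2 with PCB 126. With TCDD it was 0.16 ± 0.04 in pool 1 and 0.02 ± 0.04 in pool 2, a difference that was not called (adjusted p = 0.437).

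Ephx1 (M26125_at, chr13:95246079-95275852) was the brightest member. With PCB 126 it read 12.10, 11.87, 11.13, 11.27 and 11.43 log2 in pool 1 and 11.56, 11.62, 11.70, 11.72, 11.55, 11.49 and 11.28 log2 in pool 2. With TCDD it read 11.64, 12.19, 11.22, 10.89 and 10.90 log2 in pool 1 and 12.05, 12.16, 12.13, 11.95, 11.63, 11.40 and 11.50 log2 in pool 2, against vehicle values of 11.97 in pool 1 and 11.81 in pool 2. With either chemical every array at 10 nM or more lay below the vehicle array of its pool. The PCB 126 slope was -0.07 ± 0.03 log2 per decade, below the threshold (adjusted p = 0.237), while Ephx1 fell by 0.13 ± 0.03 log2 per decade of TCDD (adjusted p = 0.0178). The slopes were not shown to differ (0.06 ± 0.04, PCB 126 minus TCDD, 95% interval -0.03 to 0.14, adjusted p = 0.612). Against vehicle the estimates were -0.52 ± 0.22 log2 for micromolar PCB 126 and -0.71 ± 0.22 for TCDD, neither of which passed (adjusted p = 0.31 and 0.141). Dropping pool 1 at 0.316 µM ended the TCDD call (adjusted p = 0.103), as did median centring of the arrays (0.0581). That call was also lost with no pool block and in a fit of the TCDD arrays alone. Without the array that stood apart the PCB 126 slope was -0.09 (adjusted p = 0.127) and the slope difference 0.04 (0.773).

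Among the main comparisons, Abcb1b (M81855_at, chr4:26197706-26280156) was called in the PCB 126 trend only. With PCB 126 it read 10.72, 10.42, 10.45, 10.43 and 9.99 log2 in pool 1 and 11.01, 10.83, 10.82, 10.88, 10.75, 10.75 and 10.15 log2 in pool 2, against vehicle values of 10.79 in pool 1 and 10.90 in pool 2. With TCDD it ranged from 10.27 to 10.98 log2 in pool 1 and from 10.69 to 11.22 in pool 2. The lowest array of each pool was the one with 10 µM PCB 126. Its fall of 0.08 ± 0.02 log2 per decade of PCB 126 was just called (adjusted p = 0.0483) and was lost (adjusted p of 0.0515 to 0.315) when any of 18 of the 26 arrays was left out, among them the array labelled 1 pM of pool 2 (adjusted p = 0.0847). Without both 10 µM arrays the slope was -0.04 (adjusted p = 0.893). The call was also lost with no pool block and with no filter on low values. Against vehicle the estimate for micromolar PCB 126 was -0.52 ± 0.16 log2 (adjusted p = 0.112).

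**Figure D3:**
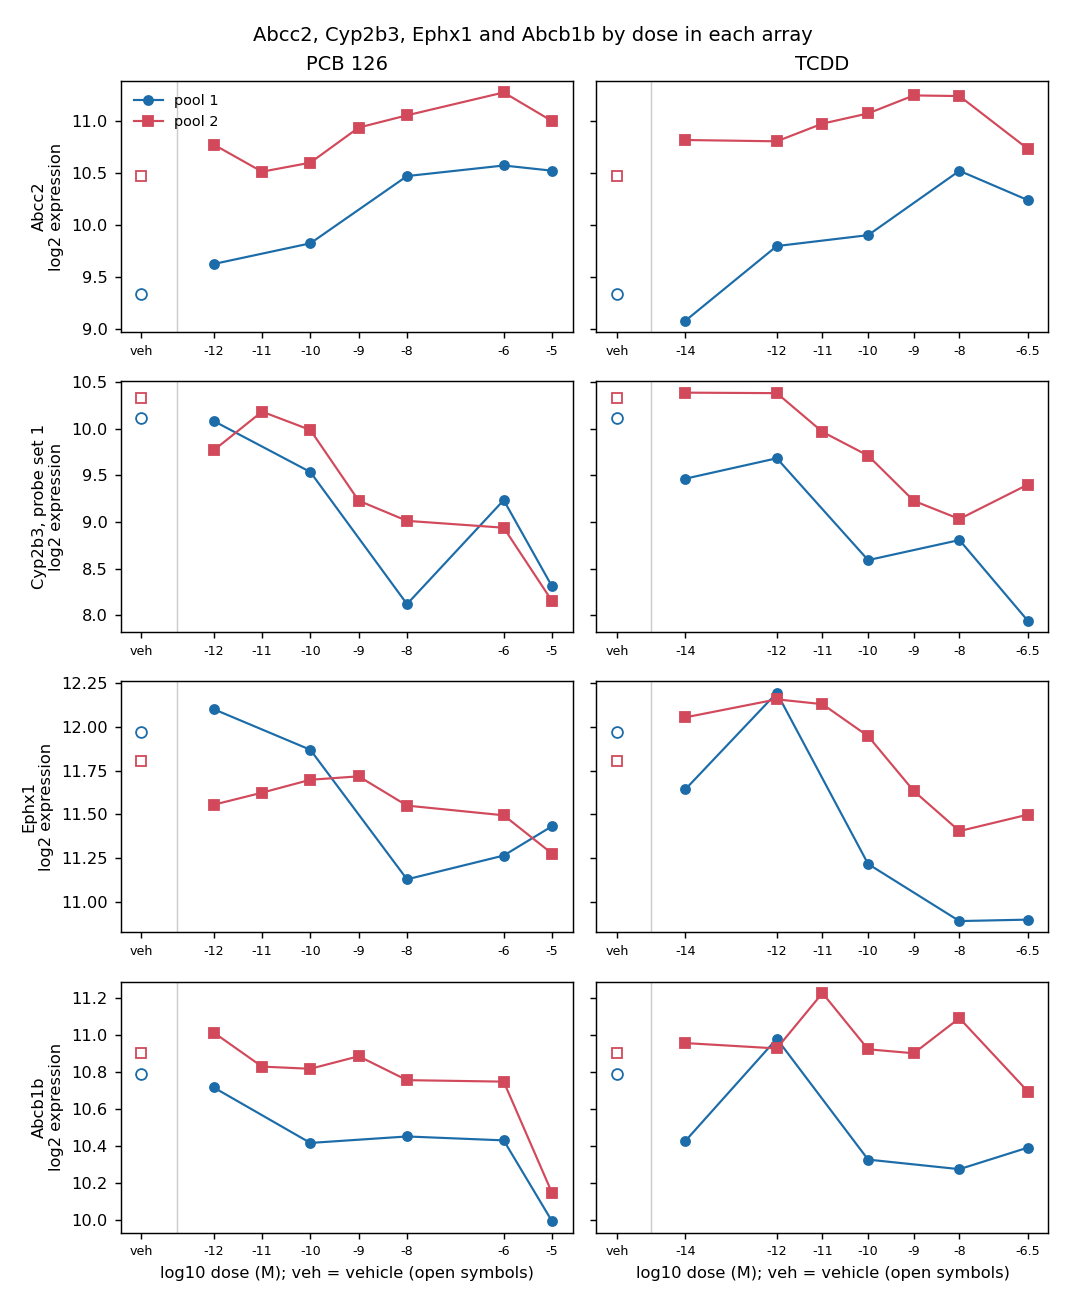
Log2 expression of Abcc2, Cyp2b3 probe set 1, Ephx1 and Abcb1b (y axes, each with its own range) against log10 dose in M (x axes), with PCB 126 on the left and TCDD on the right. Each point is 1 array, circles are pool 1, squares are pool 2 and open symbols are the vehicle arrays. Abcc2 runs from 9.08 to 11.28 log2, Cyp2b3 is lowest at 0.316 µM TCDD in pool 1 (7.94 log2), and Abcb1b reads 9.99 and 10.15 log2 at 10 µM PCB 126.

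**Figure D4:**
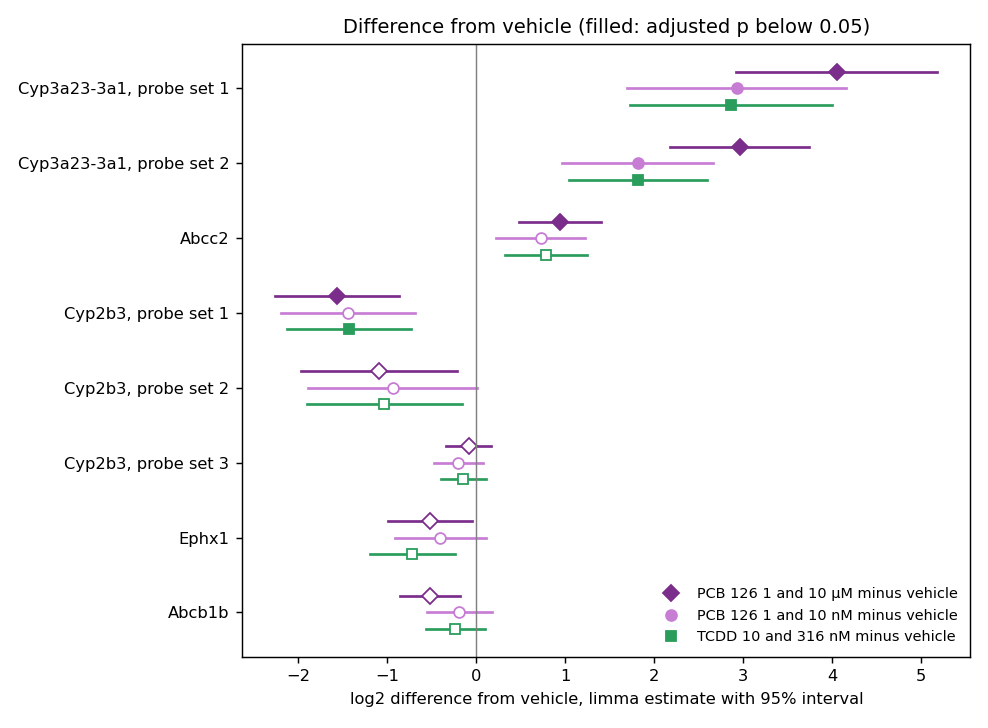
Limma estimates of the log2 difference from vehicle (x axis) for the 8 tested probe sets (rows), with 95% intervals as bars. Diamonds are PCB 126 at 1 and 10 µM, circles PCB 126 at 1 and 10 nM and squares TCDD at 10 nM and 0.316 µM, and filled symbols have an adjusted p below 0.05. Cyp3a23-3a1 probe set 1 stands at 4.05, 2.93 and 2.87 in these 3 comparisons, and Cyp2b3 probe set 1 at -1.56, -1.44 and -1.43.

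Both Cyp3a23-3a1 probe sets and Cyp2b3 probe set 1 passed at micromolar PCB 126 and at 10 nM and 0.316 µM TCDD, and Abcc2 passed at micromolar PCB 126. These comparisons share the vehicle arrays, so their likeness is not independent evidence. In array-by-array differences from the vehicle array of the same pool, Cyp3a23-3a1 probe set 1 was higher in 11 of 12 PCB 126 arrays (median 2.71 log2, range -0.56 to 5.66) and in 11 of 12 TCDD arrays (median 2.36, range -0.27 to 3.47). Cyp2b3 probe set 1 was lower in 12 of 12 PCB 126 arrays (median -0.99) and in 10 of 12 TCDD arrays (median -0.79). Abcb1b was lower in 11 of 12 PCB 126 arrays and in 6 of 12 TCDD arrays.

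**Figure D5:**
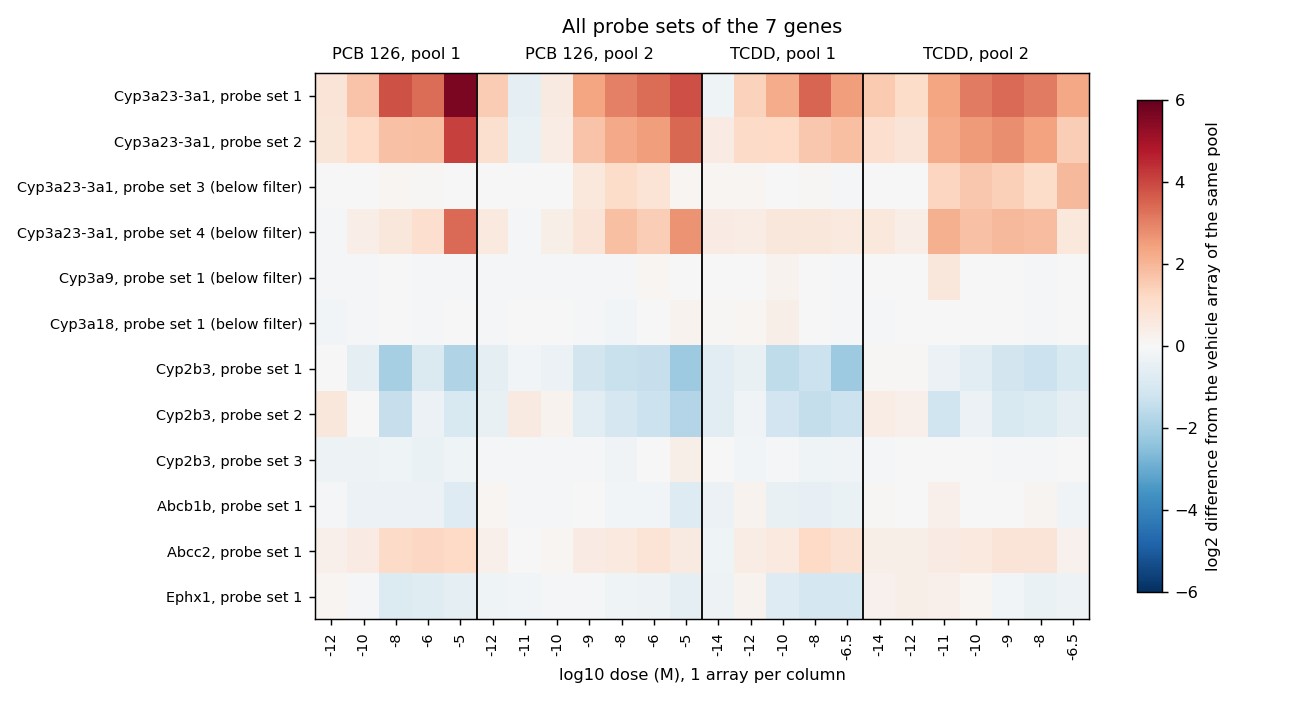
Difference in log2 expression from the vehicle array of the same pool (colour scale) for all 12 probe sets of the 7 genes (rows) in each treated array (columns, labelled by log10 dose in M), with PCB 126 before TCDD and pools kept apart. Red marks higher and blue lower than vehicle. The largest value, 5.66 log2, is Cyp3a23-3a1 probe set 1 at 10 µM PCB 126 in pool 1, and the rows of Cyp3a9 and Cyp3a18 stay between -0.18 and 0.68.

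Other genes of the same pathways were counted with the same fit. In both trends and all 3 comparisons with vehicle, 1.27% to 4.25% of all 5197 tested probe sets were called. For a list of few genes, 0 called is near that share. Nr1i2 and Nr1i3, which encode PXR and CAR, had no listed probe set. Of 15 receptors and partners, 5 were tested (Rxrb, Rxrg, Nr3c1, Hnf4a and Foxa2), and limma called 0 in either trend or against vehicle, with Nr3c1 in the TCDD trend the only one of them at an unadjusted p below 0.05 (-0.03 ± 0.01 log2 per decade). Of 13 other P450s and redox partners, 8 were tested. Cyp2a1, a steroid hydroxylase, was higher and Cyp2c7 and Cyp2c6v1, constitutive CYP2C enzymes, were lower in both trends and in all 3 comparisons with vehicle. Cyp2a1 rose by 6.64 ± 0.73 log2 with micromolar PCB 126 (adjusted p = 0.00035), by 5.38 ± 0.79 with nanomolar PCB 126 (adjusted p = 0.00566) and by 5.99 ± 0.73 with TCDD (adjusted p = 0.000681). The estimates for Cyp2c7 were -2.44 ± 0.41, -2.29 ± 0.44 and -2.35 ± 0.41 log2 in the same comparisons. Cyp2b2, the CYP2B form best known for induction through CAR, had estimates of -0.50 ± 0.13 log2 with micromolar PCB 126 (adjusted p = 0.0562) and -0.37 ± 0.13 with TCDD (adjusted p = 0.234). For a pair of probe sets that name both Cyp2b2 and Cyp2b1, the estimates with micromolar PCB 126 were 0.01 ± 0.20 and -0.12 ± 0.16 log2. With TCDD they were 0.09 ± 0.20 and -0.12 ± 0.16, and none of these was called. A probe set that names Cyp2b15 and Cyp2b2 was called in the TCDD trend (-0.06 ± 0.015 log2 per decade, limma adjusted p = 0.0247). It was called in no comparison with vehicle. A probe set that names Cyp3a2 alone had an estimate of -0.02 ± 0.11 log2 with micromolar PCB 126 (adjusted p = 1). It was dim, with a mean of 3.41 log2, a level at which the summary method sets values close together. A change in Cyp3a2 could thus be missed.

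Among 17 genes of conjugation and other phase II steps, 11 were tested and none was called higher in these 5 comparisons. With TCDD dose 4 fell, where 1.46% of all probe sets were called lower, and 3 were called without the array that stood apart. The retinal dehydrogenase Aldh1a1 fell by 0.29 ± 0.06 log2 per decade and the phenol sulfotransferase Sult1a1 by 0.15 ± 0.03. The aldo-keto reductase Akr7a3 fell by 0.18 ± 0.05 and the glucuronosyltransferase Ugt2b1 by 0.08 ± 0.02. The Ugt2b1 slope describes a fall among TCDD doses, and Ugt2b1 was not called against vehicle. At 1 pM TCDD it read 5.29 log2 in pool 1 and 5.17 in pool 2, above vehicle values of 4.82 and 4.58. At the highest TCDD dose it read 4.65 and 4.50 log2, close to vehicle. With PCB 126 dose 2 fell, where 2.69% of all probe sets were called lower, Aldh1a1 by 0.26 ± 0.06 and Sult1a1 by 0.14 ± 0.04. Sult1a1 also fell against vehicle, by 0.95 ± 0.21 log2 with micromolar PCB 126 and by 1.07 ± 0.21 with TCDD. Of 11 transporters 7 were tested and limma called 0 in these 5 comparisons, near the 1.27% to 4.25% called over all probe sets. The bile salt export pump Abcb11 had 0.78 ± 0.37 log2 with micromolar PCB 126 (adjusted p = 0.388) and Abcc1 had 0.43 ± 0.21 with TCDD (adjusted p = 0.468). Of 9 glucocorticoid receptor targets 5 were tested. Tat, tyrosine aminotransferase, rose by 1.58 ± 0.20 log2 with micromolar PCB 126, 1.05 ± 0.22 with nanomolar PCB 126 and 1.24 ± 0.20 with TCDD, and Igfbp1, an insulin-like growth factor binding protein, by 2.34 ± 0.40 with micromolar PCB 126 and 2.05 ± 0.40 with TCDD. Dusp1, a phosphatase, fell with PCB 126 dose by 0.15 ± 0.04 log2 per decade. The median of the list with micromolar PCB 126 was -0.26 log2 for the other P450s, -0.10 for conjugation, 0.11 for transporters, 0.07 for glucocorticoid targets and 0.02 for receptors, beside -0.02 over all probe sets.

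The genes whose values most resembled each member over the 26 arrays, after subtracting pool means, were named by Pearson r of the brightest probe set as a description. All points share the 2 pools and the dose series. Cyp3a23-3a1 was closest to Cyp2a1 (0.92), Tat (0.92) and the paraoxonase Pon1 (0.91), and its r with the AhR readouts was 0.79 for Cyp1a1, 0.83 for Cyp1b1, 0.85 for Nqo1, 0.86 for Cyp1a2 and 0.89 for Aldh3a1. Abcc2 was closest to Slc25a10 (0.92), Cyp2a1 (0.91) and Cyp3a23-3a1 (0.90). Cyp2b3 was closest to Cyp2c6v1 (0.96), Serpina3c (0.95) and Kynu (0.95). Ephx1 was closest to Cyp2c12 (0.93), a gene listed as Ugt2b (0.92) and Sult1b1 (0.91), and Abcb1b to Canx (0.80), Sec31a (0.80) and Eif5 (0.79). Among the members Cyp3a23-3a1 had r = -0.77 with Cyp2b3, -0.51 with Ephx1 and -0.49 with Abcb1b.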

How the data were processed

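RNA was measured on 26 single-colour oligonucleotide arrays with 8799 probe sets, of which 59 controls were left out. The deposited values are on the log2 scale and were made with GCRMA 2.8.0, with RMA named beside it, per the submitters' processing notes. What RMA was used for is not given in the sources used here, nor is the culture medium. GCRMA sets dim values close together, which shortens fold changes of weakly expressed genes. Array number limits the precision of every value.

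Groups came from the labels' chemical, dose and pool. Values were kept as deposited. A probe set was tested where its second-highest value exceeded the median of all values (3.71 log2), which left 5197. limma 3.58.1 in R 4.3.3 fitted 2 models with pool as a block, one with a slope per chemical on log10 dose (20 residual degrees of freedom) and one with the 15 dose groups (10), with trended and robust variances. P-values were adjusted by Benjamini-Hochberg over the 5197 within each comparison, with 0.05 as the threshold. Estimates with SE are from these fits. Micromolar PCB 126 is the mean of the 2 highest doses, and the highest TCDD doses are lower, so that pair differs in dose. Same-pool arrays of different groups deviated from group means together (mean r = 0.732, 0.461 to 0.892, over 11 groups), and pool marks shared animals, so the block was used. The fit was tested on simulated data of 5197 probe sets with independent noise. For micromolar PCB 126 against vehicle it recovered 82% of changes of 1 log2 and 100% of changes of 4 log2. Of 199 probe sets called there, 10 had no change. These shares are averages over randomly drawn probe sets and do not give the power for a member.

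Gene names came from the platform table, in which 7006 probe sets had 1 gene, 308 several and 1426 none, and 6985 of the 7006 matched RefSeq's table for build GRCr8, which also gave the gene positions and promoters. Named genes are all member probe sets, up to 4 genes with the smallest p per pathway list and comparison, the 3 genes most like each member, and Cyp1a1 with other AhR readouts. The genes and lists were chosen with earlier results of these data known. Alternatives left out the block, the filter, single arrays, pools or doses, or changed the scaling, the variance model or the baseline. Figures were drawn with matplotlib 3.10.9 under Python 3.11.15.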

Additional observations from a re-analysis of the deposited data

Results flagged for a closer look

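A probe set that the platform table assigns to both Cyp3a2 and Cyp3a23-3a1, and that the member counts therefore leave out, read up to 7.5344 log2 at 10 µM PCB 126 in pool 1, against 2.82 log2 in the vehicle array of that pool. It read 7.53 and 6.79 log2 at 10 µM PCB 126, 4.15 and 3.99 log2 at 0.316 µM TCDD and 2.82 and 2.58 log2 in vehicle. With micromolar PCB 126 it was higher than vehicle by 3.31 ± 0.48 log2 (SE, limma adjusted p = 0.00132), and with TCDD at 10 nM and 0.316 µM by 1.57 ± 0.48 log2, which did not pass (adjusted p = 0.138). Micromolar PCB 126 exceeded TCDD by 1.74 ± 0.39 log2 (adjusted p = 0.979).

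Cyp3a23-3a1 probe set 4, which the filter on low values left out, was above its vehicle level in both 10 µM PCB 126 arrays. The lower of these arrays read 3.48 log2, against 0.90 and 0.79 log2 in vehicle.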

How the results depend on the processing

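The 18 called member results gave 615 values under the alternatives, of which 507 stayed called, 108 were no longer called and 0 changed direction. Of 2963 values for the 94 uncalled results, 20 became called in the same direction and 69 changed sign without being called. Counts below are of the 8 tested member probe sets unless 12 are named. With no replicate block for pool, the counts were 0 for the TCDD trend, 3 for the PCB 126 trend, 2 for micromolar and 0 for nanomolar PCB 126, 0 for TCDD against vehicle and 0 for the 10 pM comparison. With no filter, of all 12 member probe sets nanomolar PCB 126 gave 1, micromolar PCB 126 gave 5 and the 10 pM comparison 2, Cyp3a23-3a1 probe set 2 and the dim Cyp3a9. With median centring the TCDD trend gave 1, the PCB 126 trend 5, micromolar PCB 126 3, nanomolar PCB 126 1, TCDD against vehicle 2 and the 10 pM comparison 0. With plain eBayes nanomolar PCB 126 gave 1. With the 0.01 pM TCDD arrays added to the baseline, TCDD gave 5, micromolar PCB 126 5 and nanomolar PCB 126 3. The TCDD trend gave 1 from TCDD arrays alone, 6 when vehicle was entered 1 decade under each lowest dose (7 for PCB 126), 0 in pool 1 and 0 in pool 2. The PCB 126 trend gave 0 in pool 1, 2 in pool 2, 0 with doses up to 10 nM, and 1 without 10 µM, an alternative chosen after seeing the data. The call left without 10 µM was that of Cyp3a23-3a1 probe set 1. Those of its probe set 2, Cyp2b3 probe sets 1 and 2, Abcc2 and Abcb1b were lost. Micromolar PCB 126 gave 2 at 1 µM alone. With 1 array left out the counts ranged from 0 to 4 for the TCDD trend, 2 to 6 for the PCB 126 trend, 2 to 4 for micromolar PCB 126, 0 to 3 for nanomolar PCB 126, 0 to 4 for TCDD and 1 to 2 at 10 pM, and were 0 in the comparisons with no call. The Cyp3a23-3a1 calls in the PCB 126 trend and at micromolar PCB 126 held in all 26 of these fits. With PCB 126 doses up to 10 nM the slope of probe set 1 was 0.67 (adjusted p = 0.182). With 1 array left out, calls over all tested probe sets moved as well. They were 81 to 257 for the TCDD trend (161 with all arrays) and 53 to 371 for the PCB 126 trend (221). The lowest TCDD trend counts of members and of all probe sets came from the same fit, as did the highest. The lowest PCB 126 trend counts also shared a fit. Calls over all probe sets varied against vehicle too. A changed member count need not be specific to the members. The causes were not tested. Only 2 vehicle arrays and 2 pools limit all comparisons with vehicle, and doses of 10 pM and 1 nM have 1 array per chemical, so leaving one out gives no value for their comparison.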
